A study of Mus musculus with 6 samples.

Results

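The nuclear genes for the subunits of respiratory complex I and for the Ndufaf proteins that help to assemble it were examined in mouse chondrocytes. They were chosen by name from the deposited gene table: every row whose symbol begins with Nduf, without the symbols that contain "-ps". The rule gave 49 of 28812 rows and used no measured value. By name, 41 rows were subunits and 8 were Ndufaf assembly factors. Of the 41 rows, 36 encode subunits of complex I. Ndufa4 encodes a protein now placed in complex IV, Ndufa4l2 encodes its paralog, and Ndufa11b, Ndufb4c and Ndufs6b are annotated as processed pseudogenes.

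Poly(A)-selected RNA was sequenced from 6 libraries of wild-type (wt) chondrocytes labelled as osteoarthritic (OA). All 6 had received interleukin-1β (IL-1β), a cytokine that drives cartilage breakdown in culture. The control group of 3 libraries received IL-1β and vehicle, and the other group of 3 received IL-1β and mitochondria, with osteocytes, the cells embedded in bone, named as their source in the series title. There was no group without IL-1β, and the labels give no time, dose, sex or age. Nothing in the labels tells if replicates were separate animals or cultures, so p-values measure only the spread between these libraries, which may be technical. Below, levels are CPM (deposited counts relative to library size, corrected by edgeR's TMM factors), changes are log2 fold changes of the mitochondria group relative to vehicle, given ± their standard error (SE), and a gene is called where edgeR's quasi-likelihood test gave a Benjamini-Hochberg adjusted p under 0.05 over all 17290 genes tested.

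Complex I is the entry point of the respiratory chain. Its matrix arm takes electrons from NADH at the N module and passes them through iron-sulfur clusters to ubiquinone at the Q module, and its membrane arm, with a proximal and a distal part, pumps protons. The core subunits that carry out this chemistry are encoded partly by nuclear genes and partly by mitochondrial DNA (mtDNA), and the accessory subunits around them are all nuclear. Nuclear respiratory genes are known for promoters that bind NRF1, ETS-family factors and YY1. Cartilage cells live at low oxygen and rely largely on glycolysis, and the respiratory chain is known to be impaired in osteoarthritic chondrocytes.

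The promoter sequences are shown because NRF1 is the regulator most often linked to these genes and its own transcript is described with the results. In RefSeq sequence of build GRCm38.p6, 250 bases before the start were available for 32 of the 36 subunits and 7 of the 8 assembly factors. The NRF1 motif, searched on both strands as GCGCA and GCGC with any base between them, was present before 6 of these subunits and in 3.74% of all 32851 promoter entries of the same length. A gene counted as having a motif if any of its entries held it, whereas the shares here and below are per entry. The Ndufb4 entry held 3 matches. For each of the 6 subunits, the first match is given 5′ to 3′ on the gene's own strand. It is shown with 10 bases on each side, and the capitals mark the motif.
Ndufa11, chr17:56717692-56717721, plus strand: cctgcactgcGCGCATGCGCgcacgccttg
Ndufa5, chr6:24527697-24527726, minus strand: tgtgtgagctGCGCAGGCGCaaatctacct
Ndufa8, chr2:36049349-36049378, minus strand: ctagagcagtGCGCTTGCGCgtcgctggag
Ndufb4, chr16:37654540-37654569, minus strand: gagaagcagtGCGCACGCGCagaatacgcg
Ndufs5, chr4:123718265-123718294, minus strand: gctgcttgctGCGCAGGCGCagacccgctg
Ndufs6, chr13:73328479-73328508, minus strand: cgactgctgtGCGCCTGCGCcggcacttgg

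None of the 3 complex I subunits called below is among these 6. Before Ndufv3, the member with the largest rise, the bases between the nearest exon of any gene and the RefSeq start held none of the motifs searched. That stretch is printed to show the start region of this gene, and it lies at chr17:31519981-31520114 on the plus strand.
Ndufv3: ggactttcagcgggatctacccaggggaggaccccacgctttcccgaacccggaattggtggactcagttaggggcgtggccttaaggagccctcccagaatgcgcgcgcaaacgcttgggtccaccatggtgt
The other motifs were the ETS motif CCGGAAG (6.91% of entries), found before Ndufb6, Ndufb7 and Ndufs3 and before Ndufaf1 and Ndufaf8; the YY1 motif GATGGCG (2.18%), before Ndufa7 and Ndufaf7; the cyclic AMP response element TGACGTCA (1.55%), before Ndufa10, Ndufa11 and Ndufb2; and the antioxidant response element TGACNNNGC (10.2%), before Ndufa1, Ndufa7, Ndufa9, Ndufs5, Ndufv2, Ndufaf3 and Ndufaf4. The NRF1 motif was also present before Ndufaf4. A match describes letters in a window and not a bound site.

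With mitochondria, few complex I subunits were called, and the number called higher was near the share over all genes. Of the 36 subunits, all of which passed the filter on low counts, 3 were called higher (8.33%) and 0 lower, against 6.36% of all genes tested called higher and 8.46% called lower. At an unadjusted p under 0.05 there were 11 higher and 0 lower, against 14.9% and 16.6% of all genes, and DESeq2 and limma also called 0 lower. The estimate was above 0 for 30 subunits and below 0 for 6, against 50.3% of all genes above 0. The median log2 fold change of the 36 was 0.17, with a range from -0.12 to 0.58, and that of all genes was 0.00. In 15 subunits (41.7%) all mitochondria libraries were above all vehicle libraries, which was so in 19.8% of all genes, and in 0 subunits was the order the other way round, against 20.9% of all genes. The 95% interval of the change lay within 1.5-fold in either direction for 30 of the 36 subunits. In bulk RNA such as this, fewer cells of a type and less RNA per cell cannot be told apart.

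**Figure D1:**
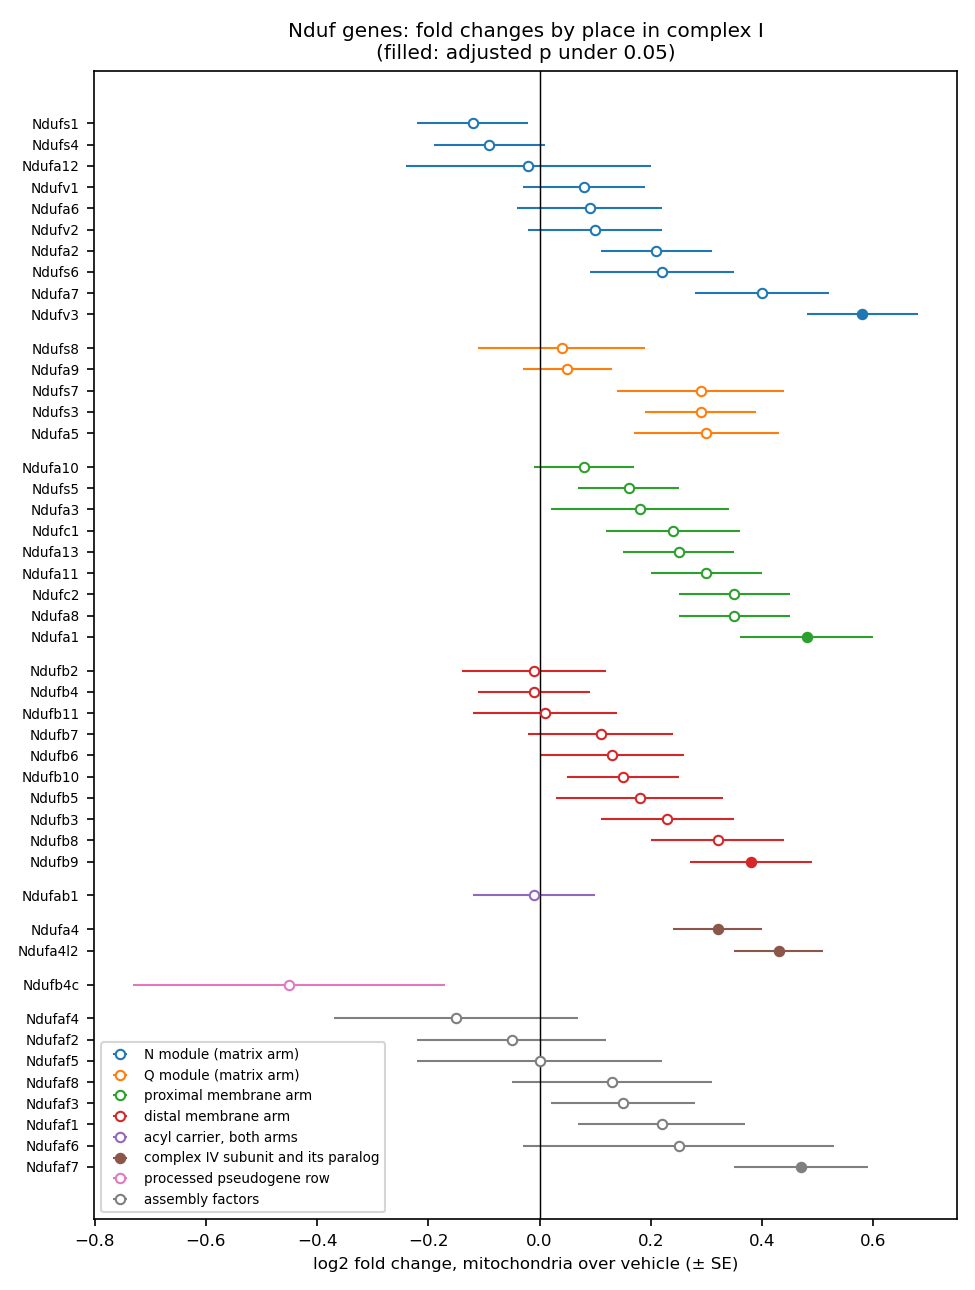
Log2 fold change (mitochondria over vehicle, horizontal axis, with bars of 1 SE) of the Nduf rows tested and reported here, grouped by their place in complex I; filled points have an adjusted p under 0.05. Most subunits lie between 0 and 0.4, Ndufv3 is the farthest to the right at 0.58, and the pseudogene row Ndufb4c is the farthest to the left at -0.45.

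The N module, where NADH is oxidised, held the largest rise among these genes. Ndufv3, a small accessory subunit that sits beside the NADH-binding core (ENSMUSG00000024038, chr17:31520115-31531331, GRCm38), measured 120, 112 and 103 CPM with vehicle and 179, 158 and 162 CPM with mitochondria. Every mitochondria library lay above every vehicle library. The mean went from 112 ± 8.6 to 167 ± 11.4 CPM (SD, n = 3 each), a log2 fold change of 0.58 ± 0.10 (SE), and edgeR's adjusted p was 0.00926. The 95% interval of the change ran from 0.36 to 0.80. Ndufv3 was still called under 18 of 20 alternative settings; the call was lost without vehicle replicate 2 (adjusted p = 0.0568) and without vehicle replicate 3 (adjusted p = 0.0632).

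The rest of the N module did not pass the test. Ndufa7, an accessory subunit of this module, came nearest, with 57.6, 60.1 and 52.9 CPM with vehicle against 85.9, 71.0 and 67.6 with mitochondria and an adjusted p of 0.0529; it was called in 3 of 20 alternatives. Ndufa2 and Ndufs6 also had groups that did not overlap, with estimates of 0.21 ± 0.10 and 0.22 ± 0.13. The estimate for Ndufa6, which belongs to the LYR family, was 0.09 ± 0.13. Ndufs4, an accessory subunit whose loss causes a Leigh-like disease in mice, measured 40.8, 43.9 and 42.7 CPM with vehicle and 37.8, 40.8 and 41.2 with mitochondria. The groups overlapped, and the estimate was -0.09 ± 0.10, or 0.22 with the GC offset. Over the 10 genes of the module the median was 0.10.

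The 7 nuclear core subunits, which bind the flavin, the iron-sulfur clusters and ubiquinone, had a median of 0.10. In the edgeR fit used throughout 0 were called (6.36% of all genes called higher), and DESeq2 and limma also called 0. At an unadjusted p under 0.05, 1 of them, Ndufs3, was higher, against 14.9% of all genes. Ndufs3 was called when a GC offset was added. Ndufv1, which binds NADH and the flavin, measured 55.7, 58.9 and 61.0 CPM with vehicle and 70.5, 56.1 and 59.2 with mitochondria. Ndufv2, which carries an iron-sulfur cluster next to it, measured 53.4, 62.6 and 54.5 CPM against 66.9, 53.2 and 63.0. In both genes the groups overlapped, and mitochondria replicate 1 was the highest library.

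Ndufs1, the large iron-sulfur subunit of the N module, was the only core subunit with an estimate below 0 in this fit. It measured 64.6, 73.1 and 73.4 CPM with vehicle and 59.1, 67.3 and 67.4 with mitochondria. The ranges overlapped, and the estimate of -0.12 ± 0.10 (95% interval -0.35 to 0.11) was the lowest among the 36 subunits. With the GC offset its estimate turned to 0.12, and those of Ndufs8 and Ndufv1 turned to -0.14 and -0.08.

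The Q module hands electrons to ubiquinone. Ndufs7, which carries the last iron-sulfur cluster before ubiquinone, measured 22.5, 20.9 and 23.1 CPM with vehicle and 31.8, 22.1 and 27.5 with mitochondria. The groups overlapped. Ndufs8, which carries the clusters before it, measured 26.6, 32.5 and 27.4 CPM against 35.8, 25.6 and 27.3, also with overlap.

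Ndufs3, a core subunit at the base of the matrix arm, was the core gene whose groups did not overlap. It measured 59.2, 65.7 and 57.4 CPM with vehicle and 78.1, 67.4 and 76.9 with mitochondria. The estimate was 0.29 ± 0.10, and the adjusted p of 0.0948 (edgeR) missed the threshold; with the GC offset the estimate was 0.32 and it was called (adjusted p = 0.048). All 6 genes of the Q module had estimates above 0 in this fit (50.3% of all genes), with a median of 0.20. EdgeR called 0 (6.36% of all genes called higher), and DESeq2 and limma also called 0. At an unadjusted p under 0.05 in edgeR's fit, 2 were higher, against 14.9% of all genes. Ndufa9, an accessory subunit of this module, had no overlap and almost no difference: vehicle libraries read 77.4 to 77.6 CPM and mitochondria libraries 77.8 to 83.1, a change of 0.05 ± 0.08.

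**Figure D2:**
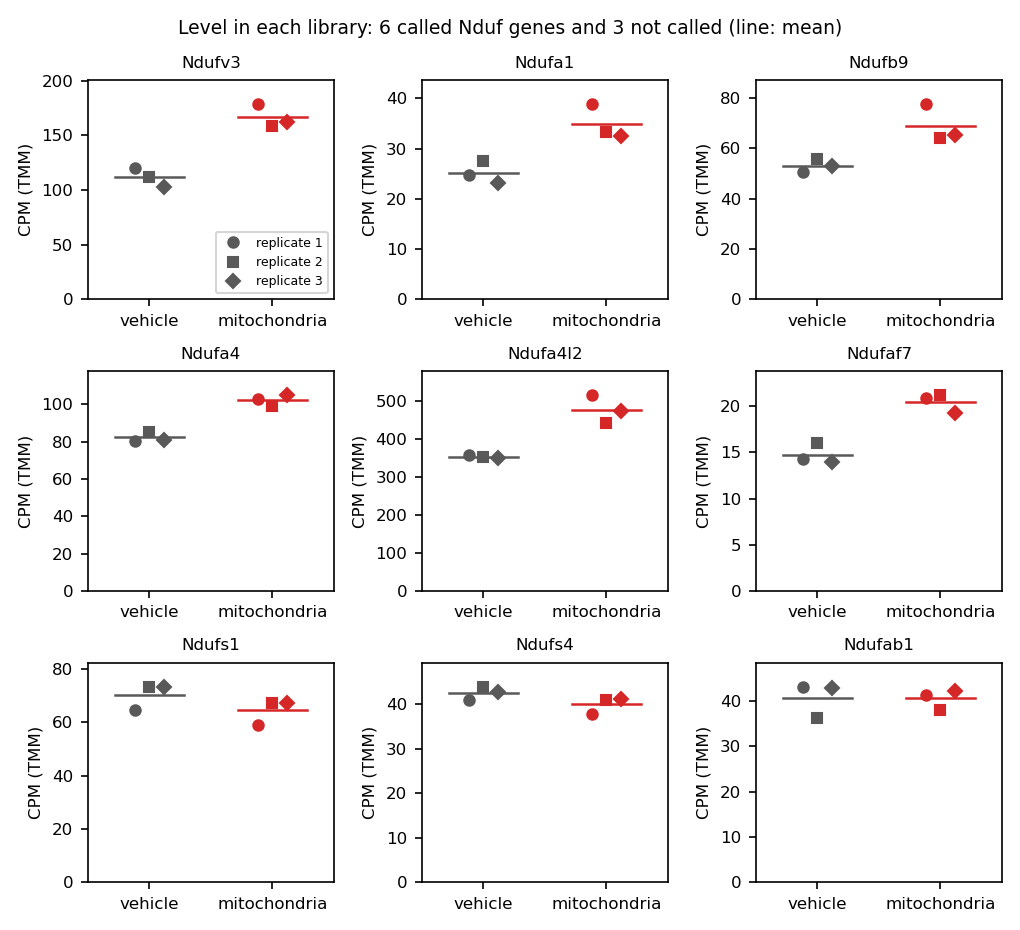
CPM (vertical axes, from 0) in each library for the 6 Nduf genes called higher and for Ndufs1, Ndufs4 and Ndufab1, which were not called. Marker shape gives the replicate number, which was not taken to pair libraries, and the line is the group mean. In each of the 6 called genes the 3 mitochondria libraries lie above the 3 vehicle libraries, while the groups of the lower row overlap.

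The proximal membrane arm, which anchors the matrix arm, had the highest median of the 4 places, 0.25. All 9 of its genes had estimates above 0 (50.3% of all genes), and 6 had mitochondria libraries all above the vehicle libraries (19.8% of all genes). Ndufa1, a very small X-linked subunit needed early in assembly of the membrane arm (ENSMUSG00000016427, chrX:37187588-37191163), was the gene called. It measured 24.8, 27.6 and 23.1 CPM with vehicle and 39.0, 33.4 and 32.5 with mitochondria, with no overlap. The mean rose from 25.2 ± 2.26 to 35.0 ± 3.52 CPM, a log2 fold change of 0.48 ± 0.12 with an adjusted p of 0.0335 (edgeR). Without mitochondria replicate 1 it was still called (adjusted p = 0.0409), but leaving out any of the other 5 libraries gave adjusted p values from 0.0517 to 0.156. It passed in 12 of 20 alternatives, and was also lost with no count filter (adjusted p = 0.0677), with limma without a filter (adjusted p = 0.0898) and with the replicate number as a block (adjusted p = 0.0546).

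Ndufa8 and Ndufc2 lay just outside the threshold. Ndufa8, a subunit on the intermembrane side, measured 52.3, 56.7 and 51.1 CPM with vehicle and 70.7, 61.9 and 70.9 with mitochondria, and its adjusted p was 0.0503. Ndufc2, a membrane subunit, measured 38.2, 36.8 and 39.3 CPM against 52.5, 45.1 and 47.9, and its adjusted p was 0.0504. In both the groups did not overlap and the estimate was 0.35 ± 0.10. Each was called with DESeq2 (adjusted p = 0.0161), with a minimum count of 40 and with counts divided by 4, Ndufa8 also without mitochondria replicate 2 and Ndufc2 also in the 3 fits with a GC offset. A lack of overlap was also found for Ndufa11 (0.30 ± 0.10) and Ndufa13 (0.25 ± 0.10), known also as GRIM-19, and for Ndufs5 (0.16 ± 0.09), whose adjusted p values were 0.0865, 0.138 and 0.275. Ndufa3, Ndufa10 and Ndufc1 had groups that overlapped, with estimates of 0.18, 0.08 and 0.24.

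The distal membrane arm was more mixed. Ndufb9, an LYR-family subunit (ENSMUSG00000022354, chr15:58933756-58939488), measured 50.5, 55.7 and 53.0 CPM with vehicle and 77.7, 64.0 and 65.1 with mitochondria. Its groups did not overlap, the mean rose from 53.1 ± 2.6 to 68.9 ± 7.61 CPM, and the log2 fold change was 0.38 ± 0.11 with an adjusted p of 0.0482 (edgeR). This call was the least stable of the 3 and held in 5 of 20 alternatives; an offset for GC content lowered the estimate to 0.23 (adjusted p = 0.0656), offsets for GC content and length to 0.16 (adjusted p = 0.173), and of the fits that leave out 1 library it passed only in the one without mitochondria replicate 1 (adjusted p = 0.0445).

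Next to Ndufb9, Ndufb8 (0.32 ± 0.12) was the other distal gene with no overlap. The estimates of Ndufb3, Ndufb5, Ndufb6, Ndufb7 and Ndufb10 ran from 0.11 to 0.23. Ndufb2, Ndufb4 and Ndufb11 had estimates of -0.01, -0.01 and 0.01. The median of the 10 genes was 0.14. Ndufab1, the mitochondrial acyl carrier protein that holds LYR subunits in both arms, measured 43.1, 36.1 and 42.8 CPM with vehicle and 41.3, 37.9 and 42.2 with mitochondria, an estimate of -0.01 ± 0.11. No difference between the 4 places was tested.

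The pair of genes that carry an Nduf name but do not encode complex I subunits were both called higher, against 6.36% of all genes. Ndufa4, in complex IV, measured 80.3, 85.4 and 81.1 CPM with vehicle and 103, 98.9 and 105 with mitochondria. The groups did not overlap, and the log2 fold change was 0.32 ± 0.08 with an adjusted p of 0.038 (edgeR). Ndufa4l2, a paralog that hypoxia-inducible factor switches on at low oxygen and that is known to lower respiration, measured 357, 354 and 350 CPM with vehicle and 516, 442 and 474 with mitochondria. Its vehicle libraries were very close to each other, and the log2 fold change was 0.43 ± 0.08 with an adjusted p of 0.0148 (edgeR).

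Both estimates depended on the scaling by GC content, in opposite directions. Ndufa4, with a transcript GC content of 44.1%, had an estimate of 0.63 with the GC offset, and Ndufa4l2, at 59.3%, had 0.24. Leaving out any library but mitochondria replicate 1 ended the call for Ndufa4 (adjusted p from 0.0567 to 0.167), and for Ndufa4l2 the call was lost when vehicle replicate 2 (adjusted p = 0.0808), vehicle replicate 3 (0.0853) or mitochondria replicate 3 (0.0538) was left out. Offsets for GC content and length together lowered the estimate for Ndufa4l2 to 0.19 (adjusted p = 0.0638). In all, Ndufa4 passed in 9 of 20 alternatives and Ndufa4l2 in 14.

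With these, 5 of the 39 tested rows named as subunits were called higher (12.8%) and 0 lower, against 6.36% and 8.46% of all genes, and the median was 0.18. The other 2 rows failed the filter on low counts: Ndufa11b had 1 deposited count in all, and Ndufs6b had 13, 3 and 9 counts with vehicle and 10, 21 and 2 with mitochondria. The tested members with the fewest counts, both well above the filter, were Ndufb4c, at 2.64, 4.56 and 4.2 CPM with vehicle and 3.07, 2.16 and 3.13 with mitochondria, and Ndufaf6.

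Processed copies of these genes can share reads with them, and how such reads were counted is not given in the sources used here. Ndufa12 was the gene most open to this. It measured 8.87, 10.3 and 15.4 CPM with vehicle and 13.3, 9.57 and 11.3 with mitochondria, while its copy Ndufa12-ps measured 10.2, 14 and 6.24 CPM and 15.6, 14.4 and 16.6. The copy took 52.7% of the counts of both. The library in which the gene was highest, vehicle replicate 3, was that in which the copy was lowest. For the sum of both rows the estimate was 0.31 ± 0.13 (adjusted p = 0.15, edgeR) in place of -0.02 ± 0.22 for the gene alone. Ndufb4c took 12.1% of the counts shared with Ndufb4, whose sum changed by -0.07 ± 0.11, and every other copy took 3.15% or less. Ndufb1-ps, which the rule leaves out by name although the table lists it as protein coding, went from 19.0 to 18.1 CPM (-0.07 ± 0.14).

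The 8 Ndufaf assembly factors act on intermediates of the complex and are not part of the finished enzyme. All 8 were tested; 1 was called higher (12.5%) and 0 lower by edgeR, against 6.36% of all genes higher and 8.46% lower, so 1 call among 8 is near the share over all genes. At an unadjusted p under 0.05, 1 was higher and 0 lower (14.9% and 16.6% of all genes), and DESeq2 and limma also called 0 lower. Their median log2 fold change was 0.14, with 6 estimates above 0. Ndufaf7, a mitochondrial methyltransferase needed for early assembly (chr17:78937136-78948052), measured 14.3, 16.0 and 13.9 CPM with vehicle and 20.9, 21.2 and 19.3 with mitochondria. It was the assembly factor whose groups did not overlap, and its mean rose from 14.8 ± 1.11 to 20.5 ± 1.02 CPM, a log2 fold change of 0.47 ± 0.12 with an adjusted p of 0.0318 (edgeR). The call held in 12 of 20 alternatives and, among the fits that leave out 1 library, only in the one without mitochondria replicate 1 (adjusted p = 0.0372); the others gave 0.0689 to 0.142.

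The other assembly factors varied within the spread of the libraries. Ndufaf6 measured 2.5, 3.48 and 1.97 CPM with vehicle and 2.64, 2.97 and 3.85 with mitochondria (0.25 ± 0.28). Ndufaf4, which acts on the Q module with Ndufaf3, measured 11.2, 11.5 and 9.72 CPM against 8.11, 13.2 and 7.85 (-0.15 ± 0.22). Its estimate turned to 0.54 with the GC offset (adjusted p = 0.0831) and to 0.56 with GC and length offsets (adjusted p = 0.0755). Ndufaf2, which binds a late intermediate, measured 7.47, 10.5 and 10.2 CPM against 9.48, 9.12 and 8.49 (-0.05 ± 0.17). In each of these genes the groups overlapped. Estimates for Ndufaf1, Ndufaf3 and Ndufaf8 were 0.22, 0.15 and 0.13, and Ndufaf5, which hydroxylates an arginine of Ndufs7, had 0.00 ± 0.22. The 95% intervals of 5 of the 8 lay within 1.5-fold in either direction. Ndufaf2 and Ndufaf3 each overlap a gene with more counts on the opposite strand, Smim15 and Impdh2, and so does Ndufb2 with Braf; use of strand in the counting is not given in the sources used here.

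Mitochondria replicate 1 stood apart from the other 5 libraries in these genes. It was the highest library for 28 of the 36 subunits; vehicle replicate 3 and mitochondria replicate 3 were highest for 3 each, vehicle replicates 1 and 2 for 1 each, and mitochondria replicate 2 for 0. The summed level of the 36 subunits was 1552, 1663 and 1595 CPM with vehicle and 1989, 1710 and 1824 CPM with mitochondria. The sums did not overlap, and their means were 1603 ± 55.7 and 1841 ± 140 CPM, a ratio of 1.15, or 1.1 without mitochondria replicate 1. Without that library the median of the 36 log2 fold changes was 0.09 in place of 0.17, with 27 estimates above 0, and the 3 subunits stayed called. The summed level of the 8 assembly factors was 75.8, 82.3 and 75.4 CPM with vehicle and 90.6, 91.5 and 78.7 CPM with mitochondria, so vehicle replicate 2 lay above mitochondria replicate 3.

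**Figure D3:**
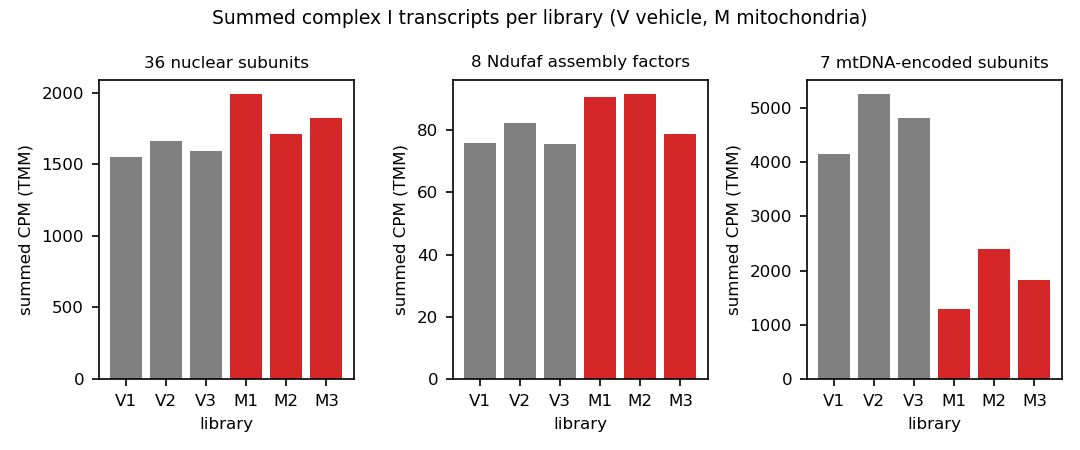
Summed CPM (vertical axes, from 0) of the 36 nuclear subunits, the 8 Ndufaf assembly factors and the 7 mtDNA-encoded subunits in each library, with V for vehicle and M for mitochondria. Library M1 has the highest nuclear sum (1989 CPM) and the lowest mtDNA-encoded sum (1300 CPM).

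The 7 subunits that mtDNA encodes form the proton-pumping core of the membrane arm, and their transcripts went the other way. All 7 were called lower by edgeR, against 8.46% of all genes. Their median log2 fold change was -1.36, with a range from -1.69 (mt-Nd4l) to -1.01 (mt-Nd3). Their summed level was 4149, 5247 and 4814 CPM with vehicle and 1300, 2399 and 1816 CPM with mitochondria, with no overlap. Whether these RNAs came from the recipient cells or from transplanted mitochondria cannot be told apart here. By position, mt-Nd4l overlaps mt-Nd4 on the same strand, and mt-Nd6 overlaps mt-Nd5 on the opposite strand. Use of strand in the counting is not given, so these rows may share reads. The 7 genes are poor in GC (median 35.7%), and an offset for GC content reduced their median to -0.27. In that fit 3 were called lower and 1 higher, against 9.42% and 9.8% of all genes. GC and length offsets together gave a median of -0.33, with 4 called lower, against 9.12% of all genes. Leaving out vehicle replicate 2, vehicle replicate 3 or mitochondria replicate 3 each left 5 of the 7 called lower. In those fits 1.77%, 1.73% and 4.07% of all genes were called lower.

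Per length, the nuclear and mtDNA-encoded parts could be set side by side only in FPKM (fragments per kilobase, scaled to depth) and only for genes with 1 listed transcript. For the 6 nuclear subunits of that kind, the length implied by count over FPKM was 1.1 times the listed transcript, whereas for the 30 with several transcripts it was 1.27 to 15.1 times. The mean FPKM of those 6 was 51.4 ± 2.79 with vehicle and 58.8 ± 4.76 with mitochondria, and that of the 7 mtDNA-encoded genes was 620 ± 82.6 and 230 ± 69.9. The ratio of mtDNA-encoded to nuclear FPKM was 10.7, 12.7 and 12.7 with vehicle and 2.49, 5.42 and 4.07 with mitochondria, with no overlap. Among the 6 nuclear genes with vehicle, Ndufa2 had the highest level, 76.2 ± 2.09 FPKM. Ndufa8 (57.7 ± 3.67), Ndufa1 (55.9 ± 5.38) and Ndufb11 (51.1 ± 7.28) followed and did not differ beyond their SDs, and Ndufa13 (34.5 ± 2.21) and Ndufb3 (33.0 ± 3.59) were the lowest and likewise close. The spread from lowest to highest over all libraries was 2.29-fold.

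Short and GC-rich transcripts moved up across the whole table, and complex I subunits are mostly short. Their median transcript length was 690.5 bases against 1550 for all genes, and their median GC content was 52.4% against 50.4%. In the shortest quartile of all genes (up to 827 bases), which held 27 of the 36 subunits, the median log2 fold change of all genes was 0.10 and 7.05% were called higher; the 27 subunits had a median of 0.21. In the next quartile the medians were 0.07 for all genes and 0.02 for 8 subunits. From the lowest to the highest quartile of GC content, the subunits numbered 6, 9, 12 and 9. With the GC offset alone the median of the 36 subunits was 0.14, with 30 estimates above 0. With GC and length offsets the median of the 36 subunits was 0.07 in place of 0.17, with 22 estimates above 0, and Ndufv3 (0.44, adjusted p = 0.0053) and Ndufa1 (0.48, adjusted p = 0.0263) were still called. The part of length and GC content in the fold changes was not tested beyond these offsets.

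**Figure D4:**
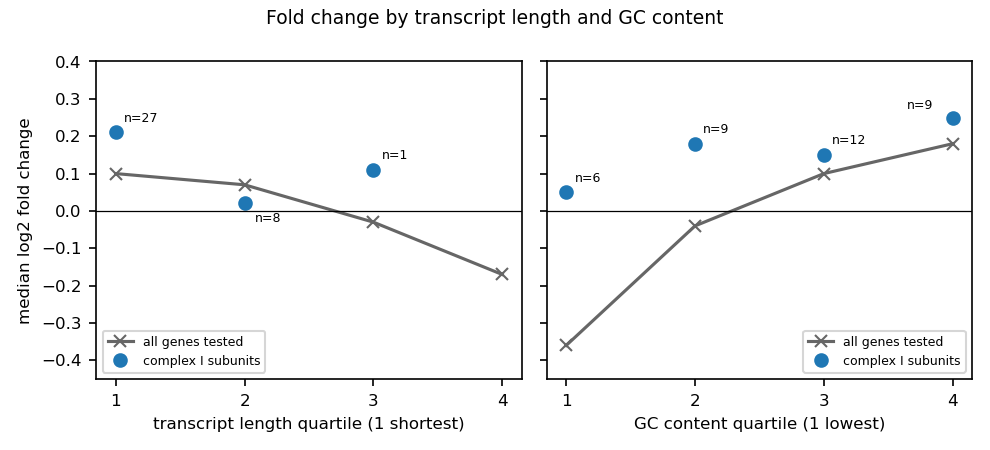
Median log2 fold change (vertical axes) by quartile of transcript length (left) and of GC content (right), for all genes tested (crosses) and for the complex I subunits in that quartile (circles, with their number). All genes go from 0.10 in the shortest quartile to -0.17 in the longest and from -0.36 in the lowest GC quartile to 0.18 in the highest.

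Of 11 assembly factors of complex I with other names, 1 was called higher (9.09%) and 0 lower by edgeR. Over all genes, 6.36% were called higher and 8.46% lower, so 1 call among 11 is near that share. At an unadjusted p under 0.05, 2 were higher and 0 lower, against 14.9% and 16.6% of all genes. DESeq2 called 2 higher and 0 lower, against 9.76% and 12.6% of all genes. The gene called by edgeR was Ecsit, a partner of Ndufaf1 in the complex that builds the membrane arm. It measured 22.4, 20.4 and 20.5 CPM with vehicle and 33.6, 29.1 and 26.9 with mitochondria, with no overlap (0.50 ± 0.12, adjusted p = 0.0285, edgeR). The call held in 13 of 20 alternatives, and among the fits that leave out 1 library in those without vehicle replicate 1 and without mitochondria replicate 1. Timmdc1 and Tmem126b, which act in the same step, missed the threshold (adjusted p = 0.0814 and 0.958, edgeR). Acad9 had -0.06 ± 0.11 (adjusted p = 0.776, edgeR). Timmdc1 was called in 2 of 20 alternatives, DESeq2 (adjusted p = 0.0475) and limma after quantile scaling. Tmem126b, at -0.02 ± 0.15, turned to 0.40 with the GC offset (adjusted p = 0.0364) and to 0.44 with GC and length offsets (adjusted p = 0.0274).

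Among 8 known regulators of nuclear respiratory genes, Nrf1 was the 1 called higher (12.5%) and 0 were called lower, against 6.36% and 8.46% of all genes. It measured 37.7, 34.3 and 34.4 CPM with vehicle and 58.6, 47.1 and 52.2 with mitochondria, with no overlap (0.57 ± 0.11, adjusted p = 0.0155, edgeR), and the call held in 16 of 20 alternatives but not without vehicle replicate 2, without vehicle replicate 3 or without mitochondria replicate 3. Gabpa, which encodes an ETS factor, measured 71.4, 68.2 and 71.4 CPM with vehicle and 36.9, 57.6 and 58.8 with mitochondria; the groups did not overlap, and the estimate was -0.46 ± 0.17 with an adjusted p of 0.0993. It was called lower by DESeq2 (adjusted p = 0.0376) and without mitochondria replicate 1, while the GC offset brought it to -0.06. Pprc1, a coactivator, was also lower in every mitochondria library (adjusted p = 0.0618) and was called lower in 7 of 20 alternatives, with the GC offset (-0.52, adjusted p = 0.0126) among them. Tfam, which packages and transcribes mtDNA, had 0.22 ± 0.10 (adjusted p = 0.171), and 0.59 with the GC offset, where it was called higher (adjusted p = 0.0179). Ppargc1a, the coactivator known for driving mitochondrial biogenesis, was low. It measured 0.906, 0.966 and 1.46 CPM with vehicle and 0.217, 0.709 and 0.821 with mitochondria. The groups did not overlap, and the estimate was -0.93 ± 0.55 (adjusted p = 0.288, edgeR). For the 6 subunits with an NRF1 motif shown above, the estimates were 0.35 (Ndufa8), 0.30 (Ndufa11), 0.30 (Ndufa5), 0.22 (Ndufs6), 0.16 (Ndufs5) and -0.01 (Ndufb4). None of the 6 was called in this fit. The median of the 36 subunits was 0.17, and a link between Nrf1 and these estimates was not tested.

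How many subunits passed depended on the settings, but no called subunit changed direction. Over 20 alternatives, the number of the 36 called higher ran from 0 (without vehicle replicate 2 or without vehicle replicate 3) to 6 (DESeq2, a minimum count of 40, or counts divided by 4), and the number called lower was 0 in each. The share of all genes called higher moved with it: 0.727% without vehicle replicate 2, 0.736% without vehicle replicate 3, 9.76% with DESeq2, 8.22% with a minimum count of 40 and 8.7% with counts divided by 4. Their median ran from 0.07 to 0.23, against -0.05 to 0.04 for all genes.

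**Figure D5:**
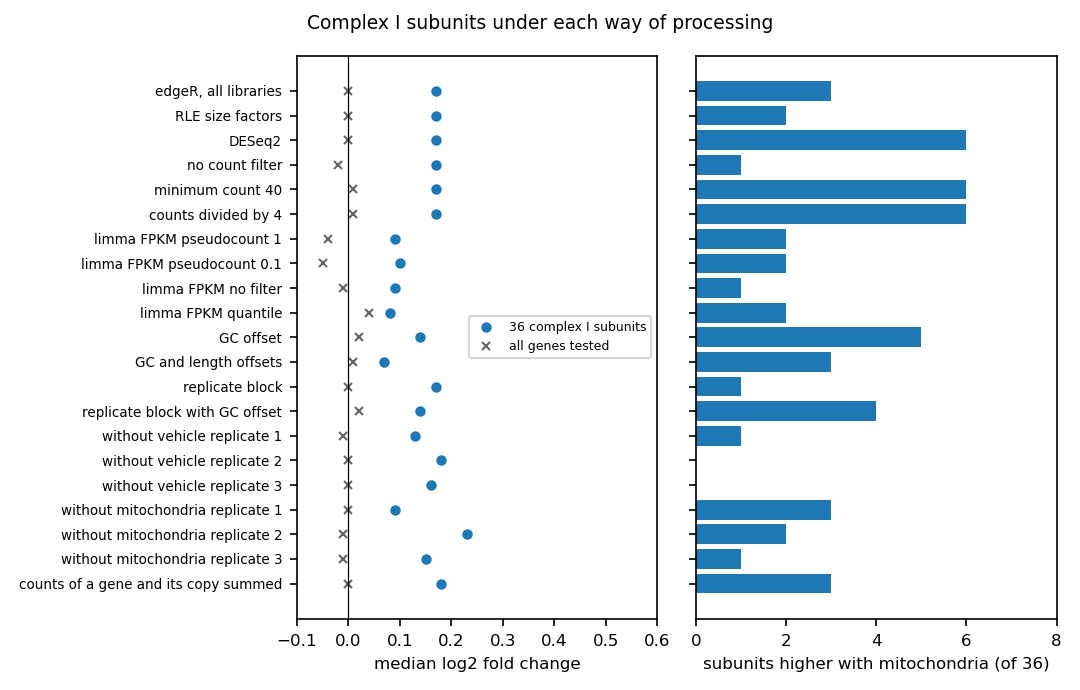
Median log2 fold change (left) of the 36 complex I subunits (circles) and of all genes tested (crosses), and the number of the 36 called higher (right, bars from 0), under each way of processing. The circles lie to the right of the crosses in each row, and 0 to 6 subunits were called.

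Across the series, totals were 63547854 to 66293786 deposited counts per library, with TMM factors of 1.008 to 1.033 with vehicle and 0.9726 to 0.9839 with mitochondria. Chondrocyte markers were present, with 13 listed genes summing to 1971 to 2358 CPM with vehicle and 1613 to 1839 CPM with mitochondria; 2 were called higher and 3 lower. Summed fibroblast markers (6 genes) were 809 to 923 CPM with vehicle and 601 to 670 CPM with mitochondria, with 2 called lower. Over all genes, 6.36% were called higher and 8.46% lower. The 5 osteocyte genes in the table summed to 1.07 to 2.3 CPM with vehicle and 1.04 to 2.05 CPM with mitochondria. Of these, Sost (0.0205 and 0), Dmp1 (0.0198 and 0), Phex (0.2 and 0.137) and Irx5 (1.09 and 0.765) had the lower mean CPM with mitochondria and Fgf23 (0.247 and 0.628) the higher. Only 2 of the 5 passed the filter on low counts, and 0 were called. Sost and Dmp1 had 4 deposited counts each over all libraries, too few to give a direction. Macrophage markers (8 genes) summed to 66.5 to 87.9 CPM with vehicle and 69.7 to 86.5 CPM with mitochondria, with 0 called. The part of the chondrocyte and fibroblast shifts in the changes of the Nduf genes was not tested.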

How the data were processed

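The authors deposited 1 table with FPKM values and expected (estimated) counts for 6 libraries, per the file headers. The submitters' processing notes name Bowtie 0.12.2, HISAT2 2.0, StringTie 1.3.0 and build mm8, without roles. Positions matched GENCODE M21 on GRCm38 for 28732 of 28812 genes by identifier and for all 49 members; 25914 genes, 38 members among them, had the same start and end. The expected counts were deposited as whole numbers and pile up at multiples of 4, so 1 fragment is taken as about 4 counts. They were fitted in R 4.3.3 with edgeR 4.0.16 (TMM, filterByExpr with a minimum count of 10, quasi-likelihood, group as the only term, two-sided). SE was obtained by dividing the size of the log2 fold change by the square root of edgeR's F, so it is not separate from p; intervals are 95%. Limma 3.58.1 was run on log2(FPKM + 1) and DESeq2 1.42.0 on the counts. The scripts were tested on simulated data. Members, lists and tests were chosen with earlier results of these data known. The values of 1 member are not reported here, though it enters the counts and medians. Full values are given for each member called, the other core subunits, and the 2 highest and 2 lowest of each group; other genes with values in every library (Ndufa7, Ndufa8, Ndufc2, Ndufs4, Ndufab1, Ndufa12) were named after their values were seen, as were the genes outside the rule. No protein sequences were used here.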

Additional observations from a re-analysis of the deposited data

How the results depend on the processing

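Of the rows named as subunits, 5 were called higher with all libraries. That number was 8 with DESeq2, 8 with a minimum count of 40, 8 with counts divided by 4, 2 with no count filter, 2 with the replicate block, and with limma on FPKM 3 (pseudocount 1), 3 (pseudocount 0.1), 3 (quantile scaling) and 1 (no filter). Leaving out 1 library gave 0 to 5, with 0 without vehicle replicate 2 or vehicle replicate 3. Their median log2 fold change of 0.18 became 0.07 with GC and length offsets, and lay between 0.11 and 0.24 when 1 library was left out. For the assembly factors the 1 call became 0 with no count filter, with limma without a filter and with the replicate block, and 0 to 1 without 1 library. The share of all genes called higher also changed with the setting. It was 6.36% with all libraries, 9.76% with DESeq2, 8.22% with a minimum count of 40 and 8.7% with counts divided by 4. It was 1.37% with no count filter and 5.19% with the replicate block. With limma on FPKM it was 7.22% (pseudocount 1), 6.88% (pseudocount 0.1), 9.68% (quantile scaling) and 0.618% (no filter). Without vehicle replicate 2 or 3 it was 0.727% or 0.736%. The cause of these changes was not tested.

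No direction of a called member reversed in any of 20 alternatives per member. Of the 41 members not called, 25 changed the sign of their estimate in at least 1, and 6 were called in at least 1. Summing counts of a gene and its copy, an alternative chosen after seeing the data, kept the number of calls at 5. Libraries with the same replicate number did not deviate together once group means were removed (correlations of 0.0371, 0.00907 and -0.0152, against -0.0314 to 0.0257 for the other pairs), so the numbers were not taken as pairs. With 3 libraries a group, the precision is set by the spread between them, with SEs of 0.08 to 0.22 for the complex I subunits.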
